A study of Mus musculus with 5 samples.

Results

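Peaks of the transcription factor Hand1 that lie at genes for transfer RNA (tRNA) are described here by amino acid, by gene cluster and by position. Members were chosen by the position of the summit, the base of highest signal in a peak: a line of the Hand1 peak list on chromosomes 1 to 19 and X belongs if its summit lies within 500 bp of a gene annotated as tRNA. The rule found 280 of 1102 summits (25.4%, exact binomial interval 22.9% to 28.1%, which covers counting error only). The gene table, RefSeq on assembly GRCm38.p6, holds 408 tRNA genes, and 283 of them (69.4%) have a summit within 500 bp. Among the 49146 genes of all other kinds, 584 (1.19%) have one in the gene body or within 500 bp of it, with no adjustment for gene length. Both shares follow from the summit positions that chose the members and are given as a description.

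The study used chromatin immunoprecipitation and sequencing in E14, a mouse embryonic stem cell line, during directed differentiation toward the heart lineage. Hand1 carried an HA peptide tag placed in its own gene (a knock-in line), and was precipitated with a homemade HA antibody at the stage labelled MES, after 48 h as embryoid bodies and 40 h of re-aggregation with VEGF (5 ng/ml), Activin A (10 ng/ml) and BMP4 (0.3 ng/ml). The other list is of Foxf1-HA, overexpressed from an inducible construct, at the stage labelled CP, reached after another 32 h as a monolayer with VEGF, basic FGF and FGF10. The series holds 5 libraries: 1 of Hand1-HA, 2 of Foxf1-HA and an input library of each stage. With 1 peak list per factor, replicate errors cannot be given and nothing was tested between groups. Factor, stage and expression of the tagged protein change together from one list to the other and cannot be told apart. Marker levels of the cells are not measured in peak lists, so the stage labels were not checked.

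A tRNA gene is short and is transcribed by RNA polymerase III from a promoter that lies inside the gene. Its internal elements, the A box and the B box, are bound by the factor TFIIIC, which recruits TFIIIB upstream of the start, and the gene ends at a run of T. Genes whose tRNAs carry the same amino acid form an isotype, and those with the same anticodon form a family. In the symbols used here, n-TSgct3 stands for a tRNA for serine (S) with the anticodon GCT. Hand1 is a basic helix-loop-helix factor of mesoderm and heart, a class known to bind the E box, CANNTG, and Foxf1 is a forkhead factor of lateral mesoderm.

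The tRNA genes have no sequence entry of their own in the sequence tables used. Sequence was read where a RefSeq promoter window of another gene (250 bases before to 50 after its start, GRCm38.p6) or a RefSeq microRNA hairpin overlaps a tRNA gene. There were 10 such windows and 1 hairpin, and all 11 tRNA genes have a Hand1 summit. In 5 of them the whole tRNA gene is covered, and these are shown because they allow a summit to be placed on the internal promoter. They are written 5′ to 3′ on the strand of the tRNA gene. Capitals mark the anticodon and then the best match to the B box core, searched as GTTCGANNC on both strands.
n-TTagt9 (chr7:35234770-35234843, minus strand): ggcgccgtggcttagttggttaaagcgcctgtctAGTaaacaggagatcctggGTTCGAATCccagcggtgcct
n-TRtcg5 (chr7:79466419-79466491, plus strand): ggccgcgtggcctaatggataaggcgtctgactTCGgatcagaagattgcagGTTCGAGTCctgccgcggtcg
n-TAagc16 (chr13:21222586-21222657, plus strand): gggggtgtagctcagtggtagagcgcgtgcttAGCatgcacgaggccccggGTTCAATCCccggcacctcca
n-TVcac9 (chr13:23446142-23446214, minus strand): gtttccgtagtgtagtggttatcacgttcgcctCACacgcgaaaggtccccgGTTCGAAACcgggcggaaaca
n-TItat14 (chr13:21896938-21897031, minus strand): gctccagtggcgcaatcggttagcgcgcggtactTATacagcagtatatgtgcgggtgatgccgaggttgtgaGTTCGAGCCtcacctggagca

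The Hand1 summit lay inside each of these 5 genes. Counted from 1 at the first base of the gene, it fell on base 29 of n-TTagt9, base 41 of n-TRtcg5, base 51 of n-TAagc16, base 45 of n-TVcac9 and base 33 of n-TItat14. The summits thus lay between bases 29 and 51, around the anticodon and before the marked B box core. The authors' fold enrichment at these summits was 13.5, 8.82, 8.57, 12.9 and 25.7 in the same order. The 94-base n-TItat14 is the longest of the 5, and the extra bases after its anticodon put its B box core at bases 74 to 82, against 53 to 61 in n-TRtcg5. An exact B box core was found in the covered part of 7 of the 11 tRNA genes, and in 7 of these 7 the summit lay upstream of the core's middle letter, by 12 to 56 bp (median 29 bp). In n-TAagc16, whose best match has 1 mismatch, the summit lay 5 bp upstream of the middle letter. That places it directly beside the match, which begins at base 52.

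Over the 10 promoter windows that overlap a tRNA gene, GTTCGANNC was present in 6, in each case in the tRNA part, against 0.849% of all 32619 promoter windows of the same length. With 1 mismatch allowed anywhere in the window the counts were 9 of 10 windows and 26.5% of all. In the windows of n-TNgtt6 and n-TLcaa3 this match was not in the covered tRNA part. Within the tRNA parts, hairpin included, a core with up to 1 mismatch was found in 8 of 11. The E box letters CANNTG were present in 5 of the 10 windows, against 72.3% of all promoters, and in none of the 10 within the tRNA part. In the 250 bases before the start alone they were present in 3 of 10, against 66.2% of all. Among the 5 whole genes above, 1 contains CANNTG, the gene n-TItat14, near its 3′ end. TATAAA was present in 2 of 10 windows against 13.7% of all, and TTTT in 8 of 10 against 78.1%. All letters were searched on both strands, matches of different motifs were counted separately where they overlap, and a match describes these letters only. The 10 windows were picked because they overlap a tRNA gene, so a B box in them was to be found whether or not Hand1 binds. No gene without a Hand1 summit was read, so the letters cannot be related to its presence.

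One member lies at the promoter of a gene for RNA polymerase III itself. The leucine gene n-TLaag4 (chr7:120917517-120917598) ends upstream of Polr3e, which encodes a subunit of that polymerase. The RefSeq promoter window of Polr3e is shown because a Hand1 and a Foxf1 summit both lie in it. Capitals mark the 71 bases of n-TLaag4 inside the window.
Polr3e promoter (chr7:120917528-120917827, plus strand): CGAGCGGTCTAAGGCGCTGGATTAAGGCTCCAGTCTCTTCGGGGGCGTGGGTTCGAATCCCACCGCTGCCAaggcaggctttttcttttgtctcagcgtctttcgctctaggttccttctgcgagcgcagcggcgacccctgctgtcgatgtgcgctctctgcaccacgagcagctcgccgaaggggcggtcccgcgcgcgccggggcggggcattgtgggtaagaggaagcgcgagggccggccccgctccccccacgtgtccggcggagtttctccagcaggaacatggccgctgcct

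The Hand1 summit lay 210 bp before the Polr3e start, inside n-TLaag4 and 14 bp upstream of the middle letter of its B box core. Its fold was 17.9, with 48 fragments at the summit. Here and below, the number of fragments was solved from the authors' fold and p-value at that summit, and intervals on a fold are exact Poisson intervals on these fragments, covering counting error only. The Foxf1 summit lay 102 bp before the start and outside the tRNA gene, at a fold of 11.8 (8.74 to 15.5, 48 fragments). The summits of the pair were 108 bp apart.

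Other members also lie just before the start that sets the promoter window of a protein-coding gene. At n-TRacg6 the Hand1 summit lay 261 bp before the start of Prmt5, which encodes an arginine methyltransferase, at a fold of 27.9 with 100 fragments, and the Foxf1 summit lay 252 bp before it, at 6.53. The Hand1 summit in n-TRtcg5 lay 186 bp before the start of Polg, the catalytic subunit of the mitochondrial DNA polymerase. The one in n-TNgtt7 lay 289 bp before the start of Ndufs7, a subunit of respiratory complex I, at a fold of 22.4 with 80 fragments. Both n-TRtcg5 and n-TNgtt7 lie inside an annotated protein-coding gene. The nearest end of such a gene lay 1456 and 90.5 bp from the middles of these tRNA genes. In each of these examples the summit was in the tRNA gene and not at the start used for the window. Within 1 kb of an end of a protein-coding gene lay 46 of the 280 member summits. Of the 408 tRNA genes themselves, 49 have their middle that close to such an end. The share at this distance over the other 822 Hand1 summits is not given, so the count is a description only. In a RefSeq promoter window itself, which reaches 250 bp upstream, lay 7 of the 280 (2.50%) and 25 of the other 822 (3.04%).

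Hand1 summits sat on the body of the tRNA gene. Of the 280, 270 lay inside a tRNA gene (96.4%, exact binomial interval 93.5% to 98.3%), never more than 1 in a gene. The distance from the summit to the middle of the nearest tRNA gene had a median of 9.5 bp (quartiles 4 and 16.5 bp), and 147 summits (52.5%) lay within 10 bp of the middle. Another 9 lay 3 to 17 bp beyond a gene end, from n-TGtcc4 at 3 bp to n-TVaac6 at 17 bp. These distances have no strand, since the gene table gives none, and the rule limits them only to 500 bp.

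The limit of 500 bp cut through a nearly empty zone. The 3 members farthest from a gene body lay 16 bp from n-TWcca2 (fold 9.30), 17 bp from n-TVaac6 (fold 11.3) and 397 bp from n-TNgtt13 (fold 6.00). The nearest summits left out lay 516 bp from n-TWcca4 (fold 14.5), 777 bp from n-TQttg3 (fold 8.43) and 811 bp from n-TNgtt13 (fold 6.82). No Hand1 summit fell between 397 and 516 bp.

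**Figure D1:**
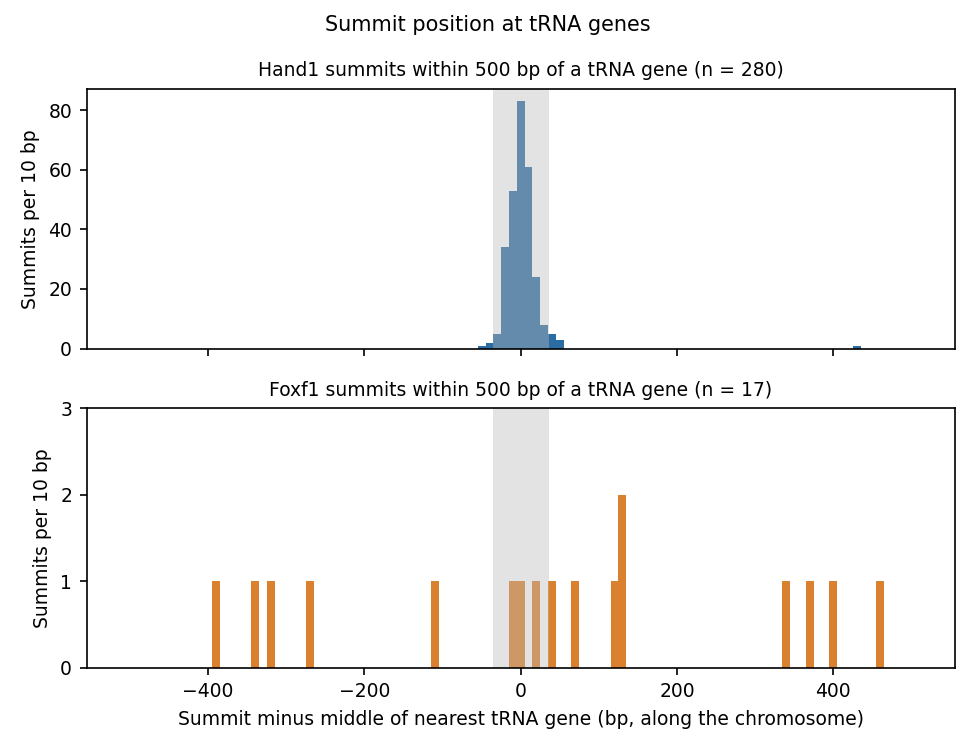
Distance of each summit from the middle of the nearest tRNA gene, in bp along the chromosome, as summits per 10 bp, for 280 Hand1 summits (top) and 17 Foxf1 summits (bottom); the grey band spans 36 bp to either side, about the length of a tRNA gene. Hand1 summits pile up in the band, with 1 far outside it, while Foxf1 summits are spread over the window.

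Because tRNA genes crowd together, a summit can be near several of them. Of the 280 summits, 205 had 1 tRNA gene within 500 bp, 61 had 2 and 14 had 3. For 4 genes the only summit in range lay inside a neighbouring tRNA gene: n-TFgaa3 at 124 bp, n-TWcca6 at 419 bp, n-TLaag5 at 91 bp and n-TVaac4 at 196 bp. Without them 279 genes have a summit of their own. The 280 summits fell in 233 peak regions, 38 of which held several of them. A region on chromosome 19 (chr19:12010874-12012448) held 4, with folds of 20.0 at n-TLtaa4, 12.4 at n-TRtct1, 27.3 at n-TVtac1 and 11.5 at n-TVtac2.

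Summits at tRNA genes were among the tallest in the Hand1 list. Their fold had a median of 15.7 (quartiles 11.5 and 20.9, range 4.41 to 44.6), against 7.04 over the other 822 Hand1 summits. A fold over 10 was reached by 233 members and by 167 of the others. The difference lay in the precipitated fragments: the median was 50.5 fragments a summit at tRNA genes (range 13 to 111) and 20 at the others, while the control level solved from the same values was 1.84 and 1.74. A high control level, 5 or more times the lowest value, was seen at 6 members and at 112 of the others. Fold is part of the peak call that chose the members, so these values describe them and support nothing further.

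The serine gene n-TSgct3 (chr11:69063042-69063123) had the highest fold, 44.6 (36.7 to 53.6, 111 fragments). It was followed by n-TAtgc9 for alanine (chr11:48834429-48834500, inside a protein-coding gene) at 42.6 (34.6 to 52.0) and n-THgtg4 for histidine (chr2:122375494-122375565) at 40.0 (32.2 to 49.1). The intervals of these 3 genes overlap, so their order is not fixed by the counts. The next were n-TIaat5 at 35.2, n-THgtg5 at 32.9, n-TSgct7 at 32.1, n-TRtcg2 at 30.2, n-TRacg1 at 29.1, n-TLaag8 at 28.9 and n-TYgta7 at 28.9. The 10 genes carry 7 amino acids and lie on chromosomes 2, 11, 13 and 14. At the other end, n-TTcgt3 for threonine had the lowest fold, 4.41 (3.15 to 6.01), with 38 fragments over a control level of 7.85.

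Every one of the 20 amino acids had at least 1 tRNA gene with a Hand1 summit. All genes for tyrosine (10 of 10) and phenylalanine (7 of 7, of which 6 have a summit of their own) had one, as did 22 of 24 for arginine, 15 of 17 for threonine, 14 of 16 for methionine and 19 of 22 for serine. Shares of about 8 in 10 were seen for glutamate (17 of 20), leucine (21 of 25), glycine (23 of 28), histidine (9 of 11), isoleucine and proline (13 of 16 each). Valine followed with 17 of 22, asparagine with 10 of 13, tryptophan with 6 of 8, aspartate and glutamine with 12 of 16 each, and lysine with 18 of 26. The lowest shares were those of alanine, 19 of 33, and cysteine, 6 of 57 (10.5%). Read against the 69.4% over all tRNA genes, cysteine stood far below.

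**Figure D2:**
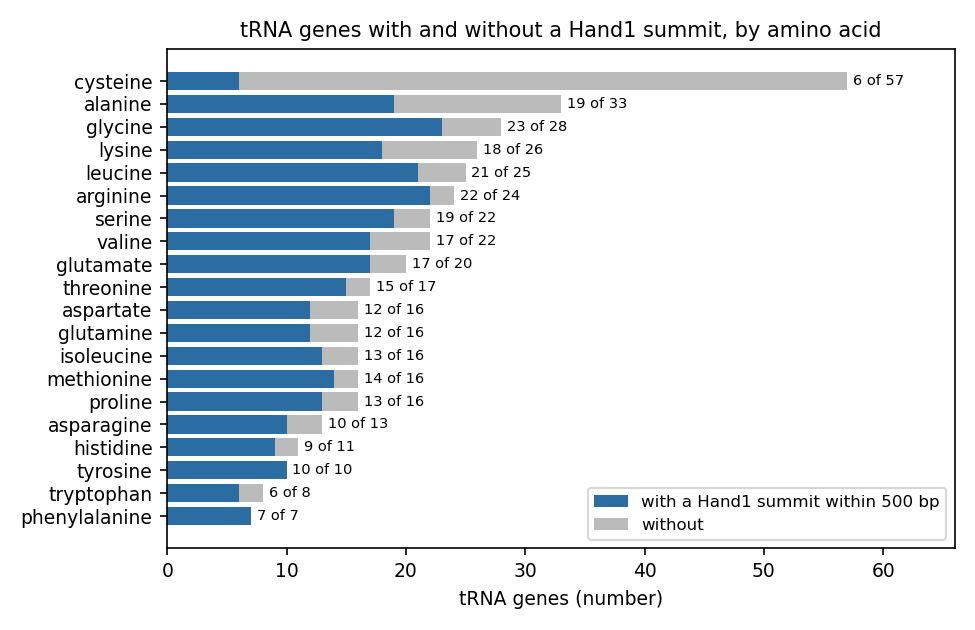
Number of tRNA genes with (blue) and without (grey) a Hand1 summit within 500 bp, for each amino acid, over the n-T symbols, ordered by the number of genes. Cysteine has the most genes, 57, and the fewest with a summit for its size, 6; tyrosine and phenylalanine have no grey part, 1 phenylalanine gene through a neighbour's summit.

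The genes without a summit were concentrated in a few places. Of the 125, 48 are cysteine genes of chromosome 6, 16 lie on X, 5 are entries with symbols of another style (Trnat-ugu, Trnap-ugg, Trnav-aac, Trnal-aag and Trnav-cac), and 56 are elsewhere. The 5 entries lie on chromosome 11 before position 3 Mb, a stretch with 43 genes in the table and no summit in either list. The first 4 named match the cluster from n-TTtgt2 to n-TLaag6 (chr11:48853619-48857055) in anticodons, order and span (3.437 kb). Whether they are second entries of the same genes was not tested, so their lack of a summit may say nothing about separate genes. Counts by amino acid and anticodon are over the n-T symbols. With the 5 entries, threonine stands at 15 of 18, proline at 13 of 17, leucine at 21 of 26 and valine at 17 of 24. Of the 56, 47 have no other tRNA gene within 10 kb.

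The 48 cysteine genes without a summit share the anticodon GCA and fill 229.667 kb (chr6:48133937-48363603). One cysteine gene of the chromosome, n-TCgca57 (chr6:47978997-47979068), lies 154869 bp from the next tRNA gene and had a summit of fold 14.5 (10.4 to 19.6). Of the 8 cysteine genes on other chromosomes, 5 had a summit: n-TCgca54 at 24.7, n-TCgca55 at 22.0, n-TCgca56 at 18.8, n-TCgca52 at 10.5 and n-TCgca51 at 5.08. The same anticodon was therefore listed at 1 of 49 genes on chromosome 6 and at 5 of 8 elsewhere. A gene without a summit is not in the list at its limit (a −log10 q-value of 5.01), which does not show that the factor is absent there. How reads that match several near-identical genes were placed is not given in the sources used here, and its part in these counts was not tested.

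Alanine showed a split by chromosome within an anticodon. None of the 12 alanine genes of X (chrX:136357602-136590436) had a summit, 7 with the anticodon TGC and 5 with CGC. The pair n-TAcgc7 and n-TAtgc6 and the pair n-TAcgc2 and n-TAtgc8 both span 1.453 kb. Whether reads that match several genes play a part here was not tested either. On the other chromosomes 4 of 4 genes with TGC, 3 of 4 with CGC and 12 of 13 with AGC had one. The TGC genes elsewhere include n-TAtgc9, second highest of all by fold. Over the whole of X, 1 of 17 tRNA genes had a summit, the valine gene n-TVtac3 at a fold of 12.9.

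The genes fell into 48 anticodon families, of which 21 had a summit at every gene and 2 at none (19 and 2 with the 5 entries of the other style). Both families without one hold a single gene, n-THatg1 for histidine with ATG (chr1:171669439-171669511) and n-TSgga1 for serine with GGA (chr11:100538158-100538230). Other rare families were listed: n-TGacc1 for glycine at 26.0 (20.0 to 33.3), n-TItat14 for isoleucine at 25.7 (19.6 to 33.2), and both lysine TTT genes, n-TKttt23 at 17.3 (12.4 to 23.6) and n-TKttt22 at 10.7 (6.92 to 15.8). The n-THatg1 and n-TSgga1 genes thus stand beside rare families that reach high folds.

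Complete families of 5 or more genes were found for 7 amino acids. Arginine had 2, ACG (6 of 6, led by n-TRacg1 at 29.1 and n-TRacg6 at 27.9) and TCG (5 of 5, led by n-TRtcg2 at 30.2 and n-TRtcg1 at 22.0). Tyrosine GTA (10 of 10) was led by n-TYgta7 at 28.9 and n-TYgta8 at 25.2, and glutamate TTC (8 of 8) by n-TEttc7 at 25.1 and n-TEttc1 at 22.9. Within each complete family the fold still ranged widely, in tyrosine from 7.55 to 28.9. Serine AGA (7 of 7) was led by n-TSaga6 at 28.0 and n-TSaga7 at 27.0, leucine AAG (5 of 5) by n-TLaag8 at 28.9 and n-TLaag5 at 24.9, and phenylalanine GAA (7 of 7) by n-TFgaa1 and n-TFgaa4, both at 25.7. For n-TLaag5 that value belongs to the summit inside its neighbour, and the phenylalanine gene n-TFgaa3 is also counted through a neighbour's summit. With the entry Trnal-aag, leucine AAG stands at 5 of 6. Glycine TCC (7 of 7) was the family of lowest folds among these, led by n-TGtcc2 at 16.0 and n-TGtcc7 at 12.4. Its fragments were not low, with a median of 57 against 50.5 over all members. The control level there ran from 1.98 at n-TGtcc3 to 9.60 at n-TGtcc1 and n-TGtcc4, against a median of 1.84 over all members. The part of the control level in these folds was not tested.

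Where a summit was listed, its height overlapped between isotypes. The median fold ran from 9.40 for tryptophan to 21.9 for serine and for isoleucine. Glycine (11.4), glutamate (11.5) and valine (11.6) lay toward the low end, and phenylalanine (19.8) and arginine (17.5) toward the high end. Glycine summits ran from 5.57 to 26.0, serine summits from 6.24 to 44.6 and proline summits from 10.4 to 22.7, so these isotypes overlap. The cysteine summits, few as they are, had a median of 16.6, close to that over all members. By fragments the order of the isotypes differed. The median was 55 for glycine and 50 for glutamate, against 39.5 for valine and 33 for tryptophan. It was 48.5 for phenylalanine and 55 for arginine, and 50.5 over all members.

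The tallest summits of the other 9 isotypes lay between 20.4 and 28.4. They were n-TMcat16 at 28.4 for methionine, n-TVtac1 at 27.3 for valine, n-TNgtt6 at 26.8 for asparagine, n-TKctt10 at 26.4 for lysine, n-TTtgt4 at 25.7 for threonine, n-TDgtc14 at 23.6 for aspartate, n-TPcgg2 at 22.7 for proline, n-TQctg4 at 21.5 for glutamine and n-TWcca7 at 20.4 for tryptophan. Counting intervals around these values are wide, for n-TWcca7 from 15.5 to 26.4 and for n-TMcat16 from 22.5 to 35.4.

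**Figure D3:**
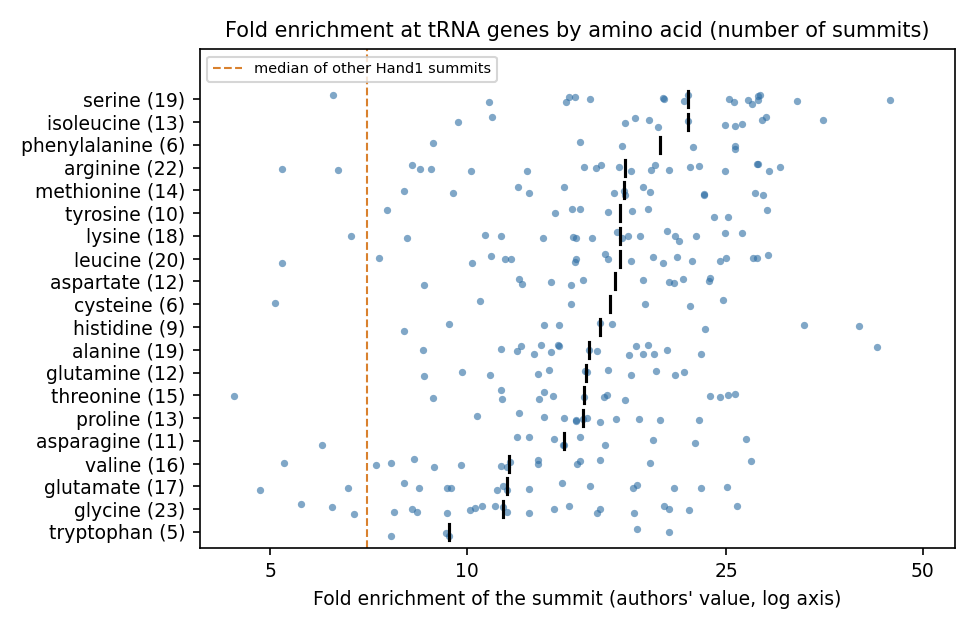
Authors' fold enrichment (log axis) of each of the 280 Hand1 summits, grouped by the amino acid of the nearest tRNA gene; black bars are medians, and the dashed line is the median of the other Hand1 summits, 7.04. Median folds run from 9.40 (tryptophan) to 21.9 (serine and isoleucine), and the points of the isotypes overlap.

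The first base of the anticodon, which pairs with the last base of the codon, separated the genes little once the cysteine genes of chromosome 6 were set aside. A summit was listed for 62 of 71 genes with A in this place (87.3%), 56 of 68 with T (82.4%), 95 of 128 with C (74.2%) and 70 of 136 with G (51.5%). Without those cysteine genes, G stood at 69 of 87 (79.3%). Genes of 80 bp or more, a class that includes the long-armed leucine and serine tRNAs, had a summit in 58 of 65 cases (89.2%). Shorter genes had one in 225 of 343 cases, or in 224 of 290 (77.2%) without the cysteine genes of chromosome 6 and the 5 entries.

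Clustered tRNA genes had a summit more often than single ones. A gene was counted as clustered if another tRNA gene lay within 10 kb, which makes 65 clusters. A summit was listed for 230 of 297 clustered genes (77.4%) and 53 of 111 single genes (47.7%), a difference of 29.7 percentage points. With clusters joined at 2 kb instead, the shares were 78.1% and 59.3%, a difference of 18.8 points. Without the cysteine genes of chromosome 6 and the 5 entries the counts were 230 of 246 (93.5%) and 52 of 108 (48.1%). The height of the summits differed less: the median fold was 16.0 at clustered and 15.5 at single genes. Taken once per summit, the width of the peak region had a median of 607 bp at clustered genes and 427 bp at single ones. A region that spans several clustered genes thus counts once for each of its summits.

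Most large clusters were complete, and the empty ones belong to 1 stretch of chromosome 6. Of the 22 clusters with 5 or more genes, 17 had a summit at all of their genes (127 genes) and 3 at none (41 genes). The 3 empty ones are all made of cysteine genes of chromosome 6, the first beginning with n-TCgca37 and n-TCgca10. They are parts of the 229.667 kb stretch described above, divided by the 10 kb limit. Only 2 were mixed, with 12 of 15 genes on chromosome 1 (chr1:171064164-171081946) and 5 of 6 on chromosome 13. In the chromosome 1 cluster the control level was high at n-TEctc5 (8.34), n-TGtcc1 (9.60), n-TLcag6 (6.36), n-TDgtc7 (9.60) and n-TGtcc4 (9.60). The median over all members was 1.84. The part of this control level in the folds and missing summits of that cluster was not tested. The largest complete cluster, on chromosome 13 (chr13:21907111-21940995), held 15 genes for 7 amino acids, with folds from 13.4 at n-TQctg8 to 28.0 at n-TSaga6 and a median of 20.4. Within it the serine AGA genes n-TSaga5, n-TSaga6 and n-TSaga1 stood highest, yet most intervals overlap. The next largest (chr13:23425646-23453514) had 14 of 14 genes, 5 of them for tyrosine, and reached 28.9 at n-TYgta7.

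**Figure D4:**
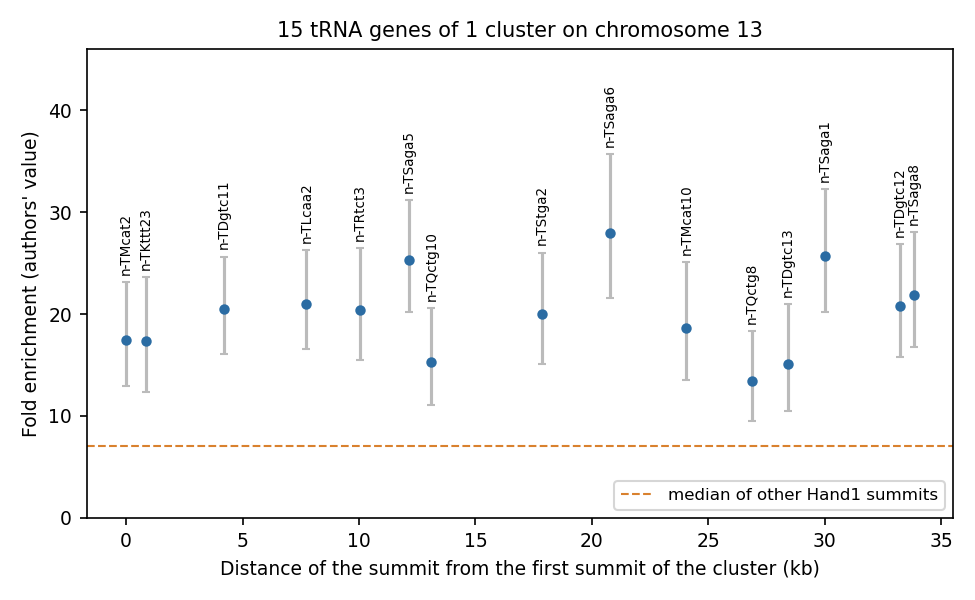
Authors' fold enrichment at the 15 tRNA genes of the largest complete cluster, on chromosome 13, against the distance of each summit from the first one in kb; bars are 95% exact Poisson intervals on the solved fragments, and the dashed line is the median of the other Hand1 summits, 7.04. Each point and its interval lie above the line.

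One stretch of chromosome 13 carried a large part of the members. Between 21 and 24 Mb of chromosome 13, 101 of 104 tRNA genes had a summit, at 99 summits for 17 amino acids with a median fold of 17.5. The same interval held 191 of the 214 Hand1 summits of the chromosome, so it also held many away from tRNA genes. Chromosome 19 was complete (10 of 10), and chromosomes 14 (11 of 12), 7 (9 of 10), 2 (7 of 8) and 3 (34 of 40) were nearly so. Besides chromosomes 6 (3 of 53) and X, chromosomes 4 (1 of 8) and 15 (1 of 4) stood low. Chromosome 2 had the highest median fold among chromosomes with 5 or more summits, 23.2.

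Distance to protein-coding genes went with the presence of a summit at single tRNA genes. Without the cysteine genes of chromosome 6 and the 5 entries, 47 of 49 tRNA genes within 1 kb of an end of a protein-coding gene had a summit. Single genes had one in 38 of 56 cases within 10 kb, in 13 of 38 cases from 10 to 100 kb, and in 1 of 14 beyond 100 kb. Clustered genes had one in 125 of 129 cases within 10 kb and 105 of 117 beyond, so their shares lay closer together. The alanine genes of X lay a median of 48.5 kb from such an end, and the cysteine genes of chromosome 6 without a summit 85.4 kb. Over all tRNA genes, a summit was listed less often inside a protein-coding gene, at 18 of 34 (52.9%), than outside, at 265 of 374 (70.9%). The outside genes here include the cysteine genes of chromosome 6 and the 5 entries. Without them the outside share would be higher. Chromatin state and transcription of these genes were not measured in these lists.

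**Figure D5:**
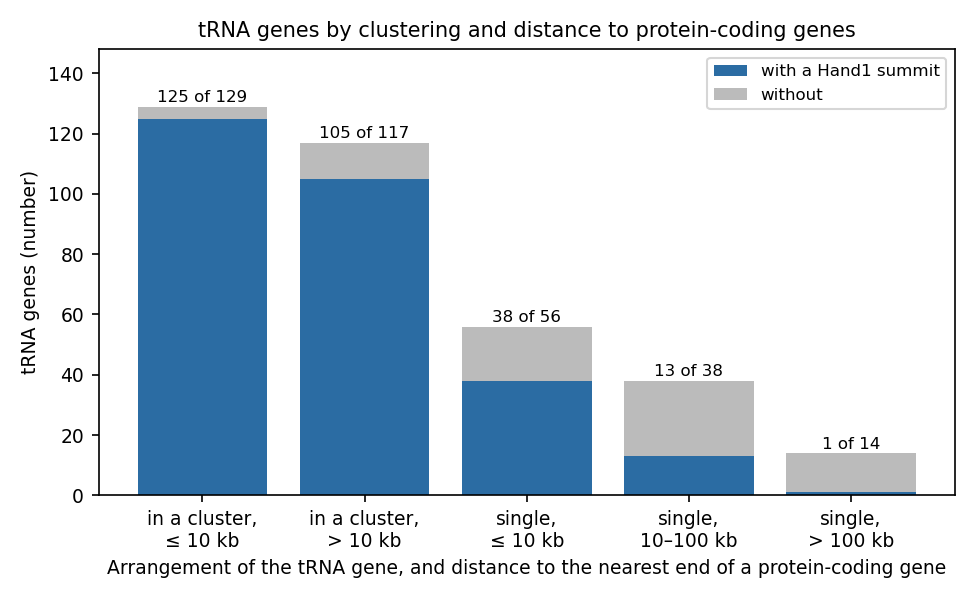
Number of tRNA genes with (blue) and without (grey) a Hand1 summit, for genes in a cluster (another tRNA gene within 10 kb) and single genes, by distance to the nearest end of a protein-coding gene; cysteine genes of chromosome 6 and 5 entries with symbols of another style are left out. The blue part shrinks from 125 of 129 clustered genes within 10 kb to 1 of 14 single genes beyond 100 kb.

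Foxf1 gave a different picture at the same genes. Of its 5638 summits, 17 were at a tRNA gene by the same rule (0.302%, exact binomial interval 0.176% to 0.482%). The number moved with the distance limit, to 9 at 200 bp and 26 at 1000 bp, where the Hand1 number was 279 and 285. They reached 23 of the 408 tRNA genes (5.64%), against 3869 of the 49146 other genes (7.87%). A summit anywhere in the gene body counts, so a short tRNA gene offers less room than a long gene. The shares are not adjusted for length and do not rank tRNA genes against other genes. All 23 also had a Hand1 summit, read against 69.4% of all tRNA genes. The lists differ in their limit, a −log10 q-value of 10.0 for Foxf1 and 5.01 for Hand1, and 272 of the 280 Hand1 members reach 10. The part of the limit in the Foxf1 count was not tested.

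Foxf1 summits lay beside the tRNA genes more than on them. Only 3 of the 17 fell inside the gene (17.6%, exact binomial interval 3.80% to 43.4%), at n-THgtg5, n-TNgtt13 and n-TRacg6. The distance to the middle of the gene had a median of 134.5 bp (quartiles 70.5 and 336.5 bp), against 9.5 bp for Hand1. At those 3 genes the Foxf1 summit lay 5, 15 and 9 bp from the Hand1 summit. Over all 17, the nearest Hand1 summit was 5 to 454 bp away (median 119 bp). Foxf1 folds were moderate, 4.99 to 11.8 with a median of 7.28.

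The highest Foxf1 fold was the one at n-TLaag4 beside Polr3e, and the next were 9.80 near n-TLtag1, 9.37 near n-TSgct5, 9.36 near n-TYgta7 and 8.85 near n-TVcac6. Single genes were also reached at n-TLcaa1 (8.64), n-TIaat7 (7.68), n-TAagc17 (7.28), n-THgtg5 (7.26), n-TRacg6 (6.53), n-TNgtt13 (6.11) and n-TEctc10 (5.57). The other summits each had several tRNA genes in range. These were n-TPagg4 and n-TTtgt3 (7.58), n-TMcat6 and n-TStga1 (6.41), n-TLcag4 and n-TLcag5 (5.89), n-TSgct3, n-TTagt7 and n-TWcca6 (5.74), and n-TGtcc1 and n-TEctc5 (4.99). At n-TSgct3, where Hand1 had its highest fold of 44.6, Foxf1 thus had 5.74, with its summit 77 bp from that of Hand1. Folds of both lists are given side by side and not compared, since each has its own control level.

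The genes that make and use tRNA were looked at as 2 lists. Of 33 genes for RNA polymerase III, its initiation factors and their regulators, 3 had a Hand1 summit within 1 kb of an end, against 172 of 21631 protein-coding genes (0.795%). They are Polr3e, through the member at n-TLaag4 shown above, Gtf3c6, a subunit of TFIIIC (fold 8.43, at 948 bp), and Zfp143, a zinc finger activator of small RNA genes (fold 5.21, at 669 bp). Only the Polr3e summit is at a tRNA gene. Of the 21 cytoplasmic aminoacyl-tRNA synthetases, the enzymes that load tRNAs, 0 had one. For Foxf1 the counts were 4 of 33 and 3 of 21, against 1537 of 21631 protein-coding genes (7.11%).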

How the data were processed

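ChIP-seq peak lists of 2 libraries were used, Hand1-HA (MES) and Foxf1-HA (CP, labelled replicate 1). Per the submitters' processing notes, the tools were Trim Galore 0.6.6, Bowtie2 2.3.4.3, SAMtools 1.9, deepTools 3.5.0 and MACS2 2.2.7.1, and the build was mm10; their settings, the control, any pooling and the handling of reads with several matches are not given in the sources used here. The deposited narrowPeak lists have no header. Fold enrichment is the authors' ratio, a linear value of the single peak. Each summit's p and q are the authors' deposited values on a −log10 scale. The deposited score was not used. The depth of the libraries is unknown from the lists.

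The 32 Hand1 and 65 Foxf1 lines off chromosomes 1 to 19 and X were left out. Fragments and control level were solved from fold = (fragments + 1)/(control + 1) and the Poisson p-value. All Hand1 lines gave a solution, and 12 Foxf1 lines did not. Intervals are 95% exact Poisson or binomial and cover counting error only. The n-T symbols were split into amino acid and anticodon. The rule named the 10 highest folds, the highest per amino acid, families of 1 or 2 genes, complete families and clusters, the members at the distance limit and all genes with a Foxf1 summit. Planned strand-aware distances were replaced by unsigned ones because the gene table has no strand. Sequences were planned for the highest genes, genes without a summit and the selenocysteine gene; those shown are the genes found in other genes' windows, and the selenocysteine gene is not analysed here. Members, gene lists and rules were chosen with earlier results of these data known. Scripts were tested on simulated data. Python 3.11.15, numpy 2.4.6, pandas 2.3.3, scipy 1.17.1 and matplotlib 3.10.9 were used. Alternatives changed the distance limit, the q limit, regions against summits, the clustering distance, the assignment of summits and the motif match.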

Additional observations from a re-analysis of the deposited data

How the results depend on the processing

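Each result was recomputed under other settings, 30 in all over 9 results. Of these values 9 moved beyond the interval or the limit of 1.5 times set for them, 21 did not and 0 reversed. The number of Hand1 members ranged from 232 (1 summit per region) to 285 (1000 bp), and the median fold from 15.5 to 16.4. The share of tRNA genes with a summit was 59.1% without tRNA genes that have another within 1 kb, and 78.6% without the cysteine genes of chromosome 6. The clustered minus single difference was 18.8 points with clusters joined at 2 kb, 44.3 points without those cysteine genes, and 44.2 points also without X and the 5 entries. The median summit position was 7.75 bp at genes with no other tRNA gene within 1 kb. The B box core was in 60% of windows, and in 90% with 1 mismatch anywhere in the window, tRNA part or not. The E box was in 50% of windows and in 30% of their upstream parts, a change of 2 windows of 10 that stays within the binomial interval. Foxf1 summits numbered 9 at 200 bp and 26 at 1000 bp. By construction, these alternatives count other genes, distances or letters. Leaving out the cysteine genes, X or the 5 entries was chosen after seeing the data. No paired analysis was possible because each factor had 1 peak list. With no replicate lists, no result has a measured error between samples, and the lists do not give the depth that sets which genes pass their limits.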
